A study of Mus musculus with 6 samples.

Results

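The promoters of the cytoplasmic ribosomal protein genes were followed through ATAC-seq peak lists of mouse visual cortex astrocytes with and without the glucocorticoid receptor (GR). The genes were all protein-coding GENCODE genes on mm10 with a symbol of Rpl or Rps followed by a digit, together with *Rplp0*, *Rplp1*, *Rplp2* and *Rpsa*, leaving out the S6 kinases (Rps6k) and pseudogenes. This gave 86 of 21938 protein-coding genes. The rule reads names only, so it also took *Rps19bp1*, which encodes a binding partner of Rps19 and not a ribosomal subunit, and 8 paralogues or copies (*Rpl22l1*, *Rps27l*, *Rps27rt*, *Rpl10l*, *Rpl36al*, *Rpl39l*, *Rpl3l* and *Rpl7l1*). The other 77 genes are called core genes here.

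Libraries of 2 conditions were compared, 3 GR-con and 3 GR-KO. Both conditions used mice homozygous for a floxed GR allele (GR fl/fl) that were injected at P0 to P1 with an AAV2/5 vector carrying GfaABC1D, a short astrocyte promoter derived from *Gfap*. The vector encoded inactive ΔCre in GR-con and active Cre in GR-KO, in each case joined through T2A to EGFP-KASH, which labels the nuclear envelope, with the 4x6T microRNA target cassette. V1 was taken at P21, tissue of 3 to 4 animals was pooled per library, and 50000 nuclei positive for DRAQ5 and GFP were sorted, so recombination was limited to nuclei in which the vector was active and animals within a pool cannot be separated. The deposited files hold 1 peak list per library, in which each summit has a fold enrichment over its local background. The lists held 179462 to 198929 peaks, and sequencing depth is unknown because they give no read counts.

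Ribosomal proteins bind ribosomal RNA to form the small (Rps) and large (Rpl) subunits of the cytoplasmic ribosome. Their genes are transcribed in nearly all cells from promoters that usually lack a canonical TATA box, and their mRNAs often begin in a tract of pyrimidines (the TOP tract) through which mTOR signalling controls translation. SP1, YY1 and factors of the ETS family such as GABP are known regulators of such housekeeping promoters. GR is a ligand-activated nuclear receptor that binds palindromic DNA elements.

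Sequences of 5 genes are shown because they span the strongest promoters (*Rps7*, *Rpl11*), a common reference gene (*Rps18*) and genes whose strongest peak lay downstream of the annotated gene start (*Rps10*, *Rps24*). Each runs from 75 bases before to 15 bases from the RefSeq start on GRCm38.p6, which is mm10, and capitals mark the core of the ETS motif, CTTCCG, on either strand.
*Rps7*, chr12:28635939-28636028, minus strand: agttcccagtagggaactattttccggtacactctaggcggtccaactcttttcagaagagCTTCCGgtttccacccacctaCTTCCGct
*Rpl11*, chr4:136053379-136053468, minus strand: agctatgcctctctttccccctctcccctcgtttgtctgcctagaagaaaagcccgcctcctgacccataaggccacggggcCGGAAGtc
*Rps18*, chr17:33955651-33955740, minus strand: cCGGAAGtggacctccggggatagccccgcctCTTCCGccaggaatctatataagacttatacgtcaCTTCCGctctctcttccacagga
*Rps10*, chr17:27635230-27635319, minus strand: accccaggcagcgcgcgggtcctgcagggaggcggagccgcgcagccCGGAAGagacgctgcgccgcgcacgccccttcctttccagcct
*Rps24*, chr14:24490603-24490692, plus strand: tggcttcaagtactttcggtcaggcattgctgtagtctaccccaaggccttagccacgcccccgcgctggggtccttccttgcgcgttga
*Rps7* carried 2 such cores and *Rps18* carried 3, *Rpl11* and *Rps10* carried 1 each, and the *Rps24* stretch carried none. RefSeq promoter entries were found for 66 of the 86 genes.

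The labelled cell type was compared with marker promoters. A peak within 500 bp of the gene start was present in all 6 libraries for 8 of 10 astrocyte markers, with mean fold enrichment from 5.53 at *Gfap* to 9.92 at *Sox9*, a transcription factor of the astrocyte lineage. *Aqp4* and *Aldh1l1* had no peak there but had one in all 6 libraries at another coding transcript start. At the gene start, a peak in all 6 libraries was present for 2 of 6 neuron markers, 1 of 5 oligodendrocyte lineage markers, 1 of 4 microglia markers and 1 of 3 endothelial markers. *Mog*, *Mag*, *Pdgfra*, *Cx3cr1*, *Csf1r*, *Aif1*, *Pecam1* and *Gad1* had no such peak in any library, whereas *P2ry12* (mean fold enrichment 9.24), *Syt1* (6.93), *Mbp* (5.65), *Flt1* (4.16) and *Snap25* (4.00) had one in all 6. At any coding start, *Pdgfra* and *Rbfox3* also had a peak in 6 libraries and *Gad1* in 3. The mean at the microglial gene *P2ry12* was above that of each astrocyte marker but *Sox9*. The part of other cells in the values below was not tested. At *Nr3c1*, which encodes GR, the strongest peak at a coding transcript start had a fold enrichment of 7.04, 7.02 and 6.64 in GR-con and 6.28, 6.27 and 5.91 in GR-KO. The ranges did not overlap, but the difference was not called (adjusted p = 0.745, limma), and a promoter peak does not read the deleted exon, so it is no check of the knockout.

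Ribosomal protein promoters were among the strong ATAC peaks of every library. A promoter peak, meaning a summit within 500 bp of the annotated gene start, was present in all 6 libraries for 77 of the 86 genes (89.5%), compared with 12427 of 21938 protein-coding genes (56.6%). Among these, the median fold enrichment was 22.4, 22.1 and 20.6 in GR-con 1, 2 and 3, and 22.9, 22.1 and 21.9 in GR-KO 1, 2 and 3. The corresponding medians of all promoters were 16.6, 16.9 and 15.8 in GR-con and 17.2, 16.7 and 16.6 in GR-KO. The ribosomal protein median thus stood above the median of all promoters in each of the 6 libraries, at 1.32 ± 0.0239 times its value for GR-con libraries and 1.33 ± 0.0094 times for GR-KO libraries (mean ± SD, n = 3 each). Ranked among all peaks of a list, the median member of the GR-con libraries lay at a percentile of 96.5 ± 0.115 (SD, n = 3). In the GR-KO libraries it lay at 96.9 ± 0.151 (SD, n = 3). The median promoter lay at 90.6 ± 0.566 and 91.0 ± 0.149, respectively. Library medians of peak width overlapped, from 829 to 877 bp against 833 to 910 bp for all promoters.

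**Figure D1:**
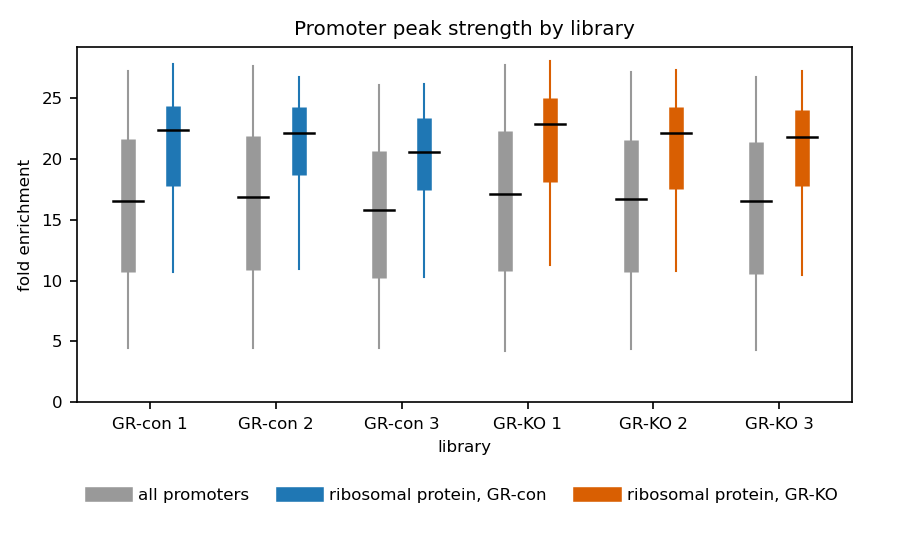
Fold enrichment (y axis) of the strongest promoter peak in each library (x axis) for all promoters (grey) and ribosomal protein promoters (GR-con blue, GR-KO orange) with a peak in all 6 libraries. Black lines are medians, thick bars the quartiles and thin lines the 5th to 95th percentiles, and the ribosomal protein medians of 20.6 to 22.9 exceed the medians of all promoters in every library.

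This strength was shared with other housekeeping gene groups, which were described in the same way and without a test. The median over genes of the mean fold enrichment was 22.1 for ribosomal protein genes, 21.4 for 75 mitochondrial ribosomal protein genes, 22.5 for 35 proteasome subunit genes and 21.6 for 19 ribosome assembly genes such as *Fbl* and *Ncl*. It was lower, at 18.3, for 19 other genes of translation, which include elongation factors. Within the core, the 28 small subunit genes had a median of 23.0 and the 44 large subunit genes a median of 21.1, with ranges of 7.94 to 27.7 and 8.79 to 27.7 that overlapped almost throughout.

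The members differed far more from each other than any one of them differed between libraries. *Rpl23*, a large subunit protein, had the highest mean percentile, with a fold enrichment of 29.1, 26.8 and 26.7 in GR-con and 27.7, 27.0 and 29.0 in GR-KO. *Rps7*, a small subunit protein, gave 26.3, 27.9 and 26.1 in GR-con and 30.0, 28.6 and 27.1 in GR-KO. *Rpl22l1*, the paralogue of *Rpl22*, gave 28.0, 26.1 and 27.5 in GR-con and 27.7, 27.9 and 27.6 in GR-KO. *Rpsa*, also known as the laminin receptor, and *Rpl11*, which with Rpl5 and 5S rRNA can bind MDM2, completed the first 5 with a mean of 27.4 or 27.5 each. The libraries of these 5 promoters overlapped, so their order cannot be read.

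At the other end, *Rps24*, a small subunit protein mutated in some patients with Diamond-Blackfan anaemia, gave 8.88, 7.57 and 8.07 in GR-con and 8.30, 7.58 and 7.25 in GR-KO. *Rpl18* gave 8.36, 9.60 and 8.84 in GR-con and 8.91, 8.15 and 8.90 in GR-KO. *Rpl7* and *Rpl36* had means of 10.3 and 10.9. These 4 genes lay below the median of all promoters in each library, and none of their values reached those of the 5 strongest genes. Genes often used as expression references were spread over the range, with mean fold enrichment of 23.7 at *Rplp0*, a protein of the ribosomal stalk, 21.8 at *Rps18*, 19.0 at *Rpl32*, 11.95 at *Rpl13a* and 11.1 at *Rpl19*.

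**Figure D2:**
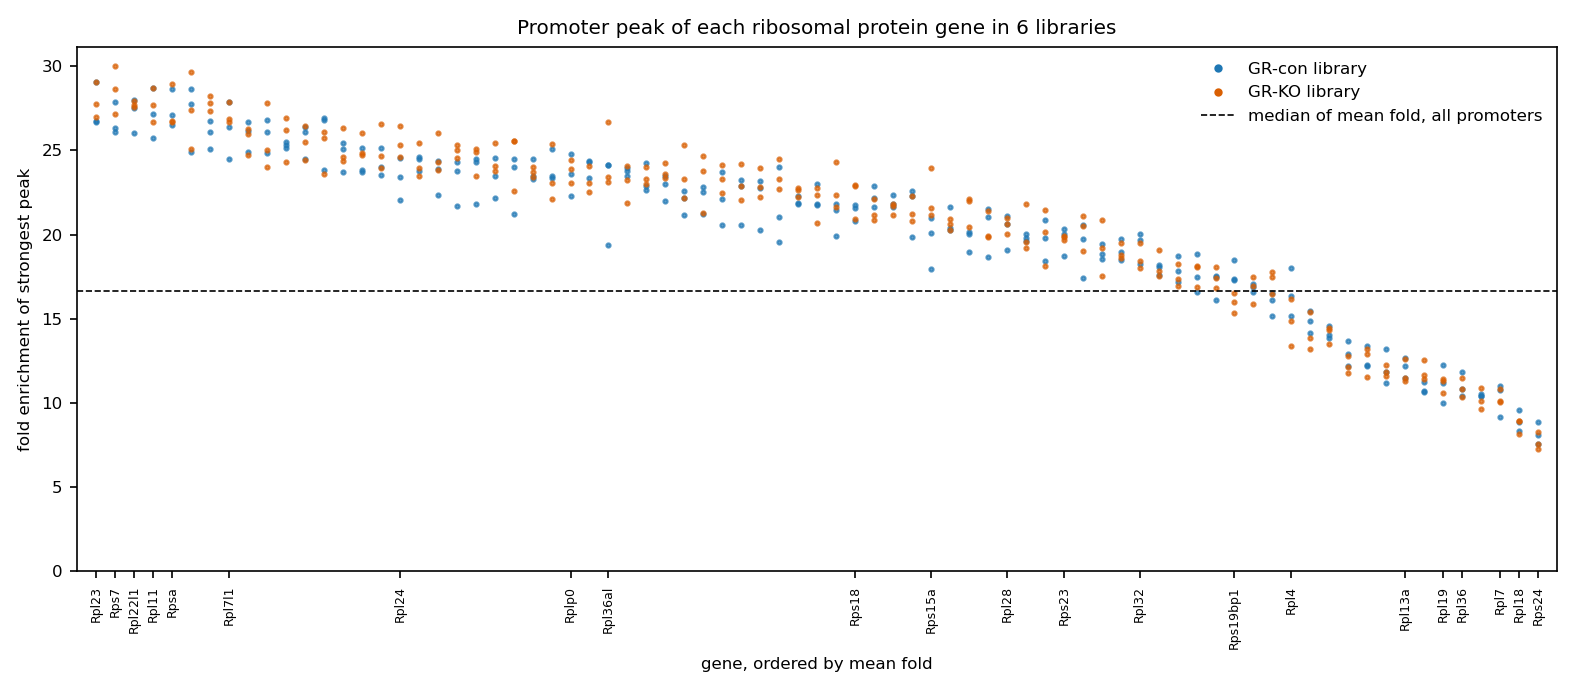
Fold enrichment (y axis) of the strongest promoter peak of each of the 77 ribosomal protein genes with a peak in all 6 libraries (x axis, ordered by mean, with some of the genes described in the text labelled), with 1 point per library (GR-con blue, GR-KO orange). The dashed line is the median over all promoters, and points of a gene lie close together while the genes run from a mean of 27.7 at *Rpl23* to 7.94 at *Rps24*.

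Several weak or missing promoters lay at a gene start that was far from the start of other coding transcripts. No peak was found within 500 bp of the gene start in any library for 7 genes, *Rps2*, *Rps10*, *Rpl17*, *Rpl10l*, *Rpl39l*, *Rpl3l* and *Rps27rt*. *Rpl3*, which lies at the peptidyl transferase centre, had one in GR-con 1 (3.73) and GR-KO 2 (3.76) only, and *Rps14* had one of 3.18, 3.27 and 2.37 in GR-con and of 2.94 in GR-KO 2. When the starts of all coding transcripts were used, all 77 core genes had a peak in all 6 libraries, compared with 13549 of 21938 protein-coding genes (61.8%). *Rps10* then gave 20.99, 22.7 and 22.5 in GR-con and 22.9, 21.8 and 21.4 in GR-KO, with summits at -60 to -47 bp from the RefSeq start (sequence above), which lies 1425 bp downstream of the gene start. The mean rose to 15.2 for *Rps2*, whose RefSeq start lies 1947 bp downstream, and to 22.3 for *Rpl3*, 17.98 for *Rps14* and 22.0 for *Rpl17*. *Rps24* moved from 7.94 to 15.97, with summits within 5 bp of a RefSeq start and the nearer such start 3553 bp downstream. *Rpl18* moved from 8.79 to 11.8, with summits at -48 to -39 bp from a RefSeq start 2614 bp downstream. The low values of *Rps24* and *Rpl18* at the gene start therefore belong to a peak other than the strongest one of the gene.

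The 4 genes without a peak at any coding start in these libraries were all outside the core. *Rpl10l* and *Rpl39l* are testis-enriched copies, *Rpl3l* is the striated muscle paralogue of *Rpl3*, and *Rps27rt* is a copy of *Rps27*. The other 5 genes outside the core had peaks in all 6 libraries, with means of 27.5 at *Rpl22l1*, 26.7 at *Rpl7l1*, 23.5 at *Rpl36al*, 22.6 at *Rps27l* and 16.8 at *Rps19bp1*.

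Summits clustered at the gene start. The median position over the 6 libraries was within 100 bp of it for 62 of 77 genes (80.5%), compared with 65.99% of all promoters. The share was near that of other housekeeping groups, at 80% of proteasome genes, 78.95% of ribosome assembly genes, 78.95% of other translation genes and 78.7% of mitochondrial ribosomal protein genes. Among the members, the summit lay farthest downstream at *Rps25* (487 bp), *Rpl35* (432 bp), *Rpl30* (341 bp), *Rpl15* (292 bp), *Rps18* (224 bp) and *Rplp2* (223.5 bp). RefSeq starts for 5 of these also lay downstream, by 575 bp at *Rps25*, 493 bp at *Rpl35*, 405 bp at *Rpl15*, 336 bp at *Rps18* and 281 bp at *Rplp2*. The position moved by more than 100 bp between libraries in 6 genes (7.79%), compared with 11.07% of all promoters. In these genes (*Rpl4*, *Rps27a*, *Rplp2*, *Rpl19*, *Rps25* and *Rps23*), another summit in the window was the strongest in some libraries.

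*Rps23*, singled out after its values were seen, was the only member whose strongest summit lay at different positions in the 2 conditions, a pattern found at 30 of 12427 promoters (0.241%). In GR-con the summit about 70 bp upstream had a fold enrichment of 20.1, 20.3 and 18.7, and the one about 173 bp downstream 19.7, 20.0 and 18.6. In GR-KO the upstream summit gave 19.6, 19.4 and 19.4 and the downstream one 19.9, 19.7 and 19.9. In each library the fold enrichment of the 2 summits was nearly equal.

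**Figure D3:**
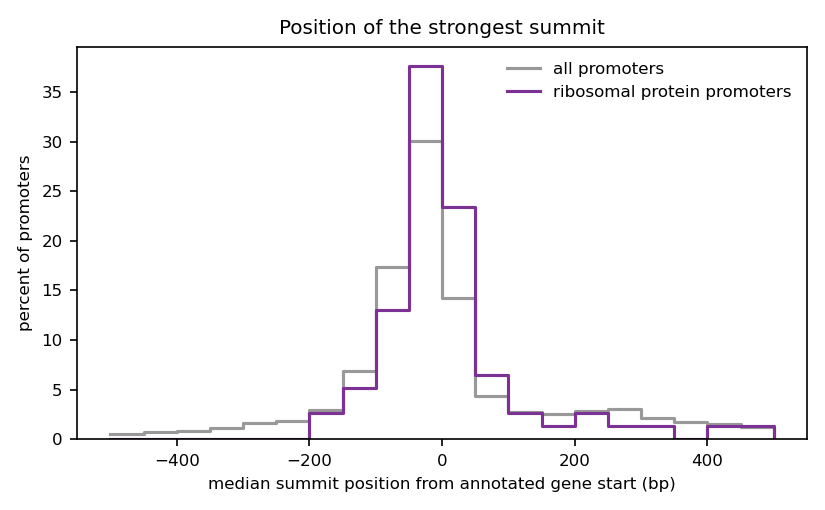
Median position of the strongest summit from the annotated gene start in bp (x axis, 50 bp bins) as percent of promoters (y axis) for ribosomal protein promoters (purple) and all promoters (grey) with a peak in all 6 libraries. Of the ribosomal protein promoters, 80.5% lie within 100 bp of the start, against 65.99% of all promoters.

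Motifs were counted in the 300 bases from 250 before to 50 from the gene start. The ETS core CTTCCG was present on either strand in 48 of 86 (55.8%), compared with 19.9% of all protein-coding promoters and 28.6% of those with a peak in at least 2 libraries. The YY1 core AAGATGG was present in 12.8%, against 6.22% of all and 6.59% of those with a peak. The SP1 core GGGCGG was present in 46.5%, above the 43.0% of all promoters and below the 62.8% of those with a peak, and the CCAAT box in 30.2%, against 39.0% and 38.4%. No member had TATAAA in the 50 bases before the start, compared with 3.25% of all promoters and 1.36% of those with a peak. Before the RefSeq starts, a choice made after seeing the data, *Rpl22l1* had it among 66 members (1.52%), compared with 3.69% of 16522 genes. The GR half-site AGAACA was present in 14 members (16.3%), compared with 16.9% of all promoters and 11.5% of those with a peak. The palindromic GR element was present in none, against 0.397% and 0.27%. Members with the ETS core did not have stronger peaks, with a median fold enrichment of 21.9 in 47 genes against 22.4 in the 30 without it, whereas over all promoters the medians were 20.2 and 15.04. These matches are descriptions of letters in a window and not of binding.

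A run of 8 or more pyrimidines that reached within 10 bases of the gene start was found in 26 members (30.2%), compared with 13.6% of all promoters. Taking any coding transcript start, a choice made after seeing the data, it was found in 50 members (58.1%), against 25.2% of all genes, with a median of 2 coding transcripts per gene in both sets. Another protein-coding gene started on the opposite strand within 1000 bp for 16 members (18.6%), such as *Mgat2* at *Rpl36al*. This share was 10.9% over all genes and 42.3% for mitochondrial ribosomal protein genes.

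The comparison of GR-KO with GR-con called no ribosomal protein promoter. Fold enrichment was ranked within each library, turned into normal scores over 13316 promoters with a peak in at least 2 libraries and compared with limma, with adjustment over all of them. Of 79 members tested, 0 were lower (0.0375% of all promoters were called) and 0 were higher (0.00751% called) at an adjusted p of 0.05. At an unadjusted p of 0.05, 2 of 79 members passed (2.53%), compared with 9.47% of all promoters. Without the variance trend 7 members passed (8.86%), against 9.01% of all promoters, so the gap depends on that setting. The median score difference, GR-KO minus GR-con, was -0.01 for the members, of which 44 were negative, and 0.01 for all promoters. It was -0.00517 without GR-con 2, -0.000663 without GR-KO 3 and 0.000579 without GR-KO 1, so its sign is not settled. Over all promoters, 5 were called lower, among them *Etnppl* and *Sult1a1*, and 1 was called higher, *Txnip*. These counts fell to 0 and 0 with the replicate block, without GR-con 1 and without GR-con 3, and to 1 and 0 without GR-con 2. In bulk nuclei, fewer nuclei with an open promoter and a less open promoter in each nucleus cannot be told apart.

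The largest differences among the members were small. *Rps19bp1* had a fold enrichment of 17.4, 18.5 and 17.3 in GR-con and 16.5, 15.4 and 16.0 in GR-KO. All 3 GR-KO values lay below the GR-con values, and the score difference was -0.25 (SE 0.0657, adjusted p = 0.307, limma). *Rps15a* gave 20.99, 20.1 and 17.97 in GR-con and 24.0, 21.2 and 21.6 in GR-KO. All 3 GR-KO values lay above, with a score difference of 0.31 (SE 0.117, adjusted p = 0.469, limma). It was 0.219 without GR-KO 1, 0.38 without GR-con 1 and 0.229 when ranked by −log10 p. *Rps7*, with the values given above, had a score difference of 0.32 (SE 0.161, adjusted p = 0.572, limma), which was 0.0598 when ranked by −log10 p. For *Rps19bp1* that ranking gave -0.128.

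*Rpl24* gave 24.5, 22.1 and 23.5 in GR-con and 24.6, 25.3 and 26.5 in GR-KO, with a score difference of 0.31 (SE 0.176, adjusted p = 0.615, limma). The difference of *Rpl24* was 0.171 without GR-con 2, 0.184 without GR-KO 3 and 0.00894 when ranked by −log10 p. *Rpl4* gave 15.2, 16.3 and 18.03 in GR-con and 14.9, 13.4 and 16.2 in GR-KO, with overlapping ranges. The value of GR-KO 1 comes from a summit at -458 bp, and in the other libraries the strongest summit lay within 10 bp of the gene start. The score difference of *Rpl4* was -0.23 (SE 0.121, adjusted p = 0.588, limma), and it was -0.0996 without GR-con 3 and -0.132 when ranked by −log10 p. *Rps14* had the most negative score difference, -0.33 (SE 0.218, adjusted p = 0.666, limma), which rests on the weak peak at its gene start that was missing in GR-KO 1 and 3. The difference of *Rps14* was -0.541 without GR-KO 2, -0.236 without GR-KO 3 and -0.536 when ranked by −log10 p. At any coding start, *Rps14* gave 17.3, 18.01 and 18.5 in GR-con and 18.6, 17.8 and 17.6 in GR-KO, and the ranges overlapped.

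Scores of the conditions did not overlap for 3 members that were lower in GR-KO (*Rpl32*, *Rps13* and *Rps19bp1*), or 3.8%, where 6.47% of all promoters did so. They did not overlap for 6 that were higher, among them *Rps7*, *Rps15a* and *Rps26*, or 7.59%, where the share of all promoters was 9.09%. Neither share of the members exceeded that of all promoters. Scores follow ranks within a library, so their overlap can differ from that of the fold enrichment. The fold enrichment itself overlapped at *Rpl32*, *Rps13* and *Rps7*, and it did not overlap at *Rpl24*, whose scores did.

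An interval was set around the difference of each promoter singly, from the fit with the variance trend. A shift shared by all promoters is removed by the centring and is not covered by these intervals. On the log2 fold scale, centred on all promoters, the differences of the 77 members with a peak in all 6 libraries ran from -0.19 at *Rpl4* to 0.14 at *Rps15a*. The 95% interval lay within 0.25 of 0 for 68 of 77 members (88.3%), compared with 61.1% of 12427 promoters. This share was not compared at equal peak strength. The median SE of the difference was 0.0518 for the members and 0.0662 for all promoters. For the other groups it was 0.0526 (proteasome), 0.0538 (ribosome assembly), 0.0571 (other translation genes) and 0.0580 (mitochondrial ribosomal proteins). Among the reference genes, the interval ran from -0.11 to 0.07 for *Rplp0*, from -0.10 to 0.15 for *Rps18* and from -0.19 to 0.02 for *Rpl32*. It ran from -0.23 to 0.08 for *Rpl13a* and from -0.21 to 0.14 for *Rpl19*. Wider intervals were found at *Rpl4* (-0.41 to 0.02) and *Rps24* (-0.35 to 0.11). The intervals of *Rps19bp1* (-0.30 to -0.07) and *Rps15a* (0.01 to 0.27) left out 0, but neither gene was called after adjustment. No member of the other gene groups was called, and an unadjusted p of 0.05 was passed by 9 of 76 mitochondrial ribosomal protein genes, 4 of 35 proteasome genes, 2 of 19 ribosome assembly genes and 1 of 19 other translation genes, beside 9.47% of all promoters, and no difference between groups is read from these counts.

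**Figure D4:**
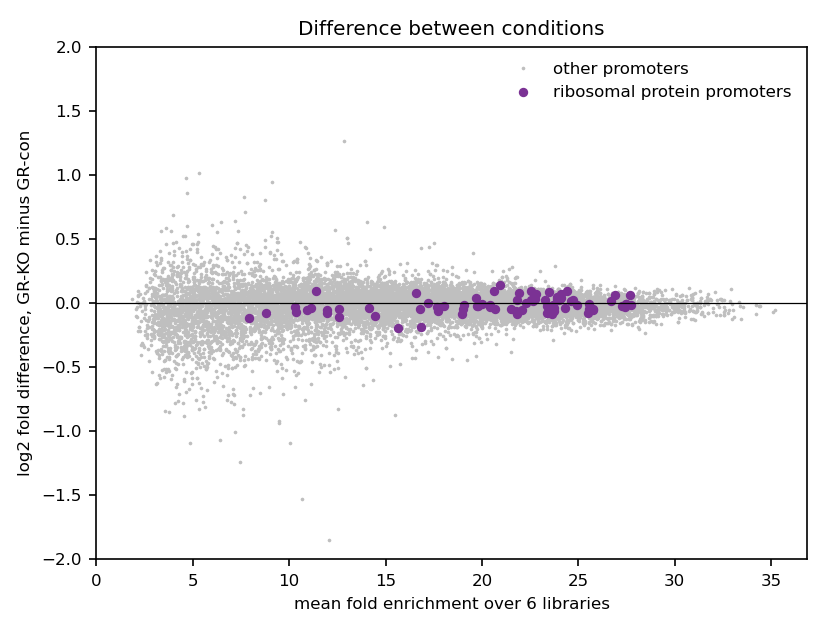
Log2 fold difference, GR-KO minus GR-con (y axis), against mean fold enrichment over 6 libraries (x axis), for ribosomal protein promoters (purple) and other promoters (grey). Ribosomal protein promoters lie between -0.19 and 0.14, and differences of other promoters are wider where the peak is weaker.

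The spread between libraries of a condition was then compared. The SD of the centred log2 fold within a condition had a median of 0.06 over the 77 members, which corresponds to 4.19% of the fold, against 0.08 or 5.72% over 12427 promoters. The median SD was 0.0556 for ribosome assembly genes, 0.0604 for other translation genes, 0.063 for proteasome genes and 0.0704 for mitochondrial ribosomal protein genes. The SD was below the median of all promoters for 62 of 77 ribosomal protein genes. Over all promoters the SD fell with the mean fold, so values are given by band of mean fold. For a mean fold between 20 and 25, the median SD was 0.0503 in 37 members and 0.0658 in all 2809 promoters. At 25 or more it was 0.0592 in 13 members and 0.0602 in all 1280, and between 15 and 20 it was 0.0633 in 14 members and 0.0723 in all 3076. Between 10 and 15 it was 0.0710 in 11 members and 0.0890 in all 2482.

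The smallest SD was found at *Rps23* (0.0201), *Rpl28* (0.0211) and *Rps13* (0.0226). *Rpl28* gave 20.6, 21.1 and 19.1 in GR-con and 20.99, 20.6 and 20.0 in GR-KO, and the ranges overlapped. The largest SD was found at *Rpl4* (0.157), *Rpl36al* (0.114) and *Rps24* (0.107). *Rpl36al*, which has the start of *Mgat2* on the opposite strand within 1000 bp, gave 24.1, 24.1 and 19.4 in GR-con and 26.7, 23.4 and 23.1 in GR-KO, so that GR-con 3 stood apart from the rest. At *Rplp0* the SD was 0.0246, and at *Rpl19* 0.0766.

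**Figure D5:**
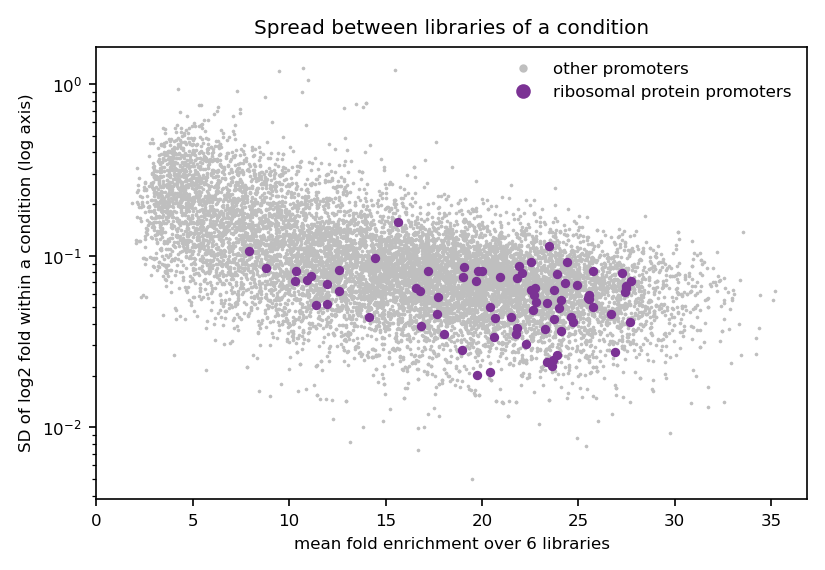
SD of the centred log2 fold between libraries of a condition (y axis, log scale) against mean fold enrichment (x axis) for ribosomal protein promoters (purple) and other promoters (grey). Over all promoters the SD is smaller at stronger peaks, and the quartiles of the ribosomal protein promoters are 0.0431 and 0.0752.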

How the data were processed

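ATAC-seq was performed on sorted V1 astrocyte nuclei at P21. Per the paper's methods the authors ran the ENCODE ATAC-seq pipeline, and the labels give mm10. The reporting summary also names a pipeline release, its multimapping setting and its peak p-value threshold. Aligner and caller versions are not given in the sources used here. The authors deposited 1 peak list per library, holding a capped score, a fold enrichment (a ratio over local background), and −log10 p-values and q-values. A peak can have several summits, each with its own row, and depth is unknown.

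The strongest peak by deposited fold with its summit within 500 bp of the 5′ end of the GENCODE M21 gene record was used. Promoters found in 2 or more libraries were ranked by library, with missing peaks ranked lowest. Normal scores of the ranks entered limma 3.58.1 (R 4.3.3), which used a mean-variance trend and no replicate term, and p-values were adjusted by Benjamini-Hochberg. The deposited −log10 p was used as an alternative ranking. Libraries are labelled as separate replicates of pooled animals. An exact permutation test of 3 against 3 libraries cannot go below 0.1. Sequences were read with pysam 0.24.0 and pandas 2.3.3 in Python 3.11.15.

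Members, gene lists and tests were chosen with earlier results of these data known. Genes were named if called, if among the 3 largest differences in each direction, the 5 strongest or 5 weakest, the 3 smallest or 3 largest SDs, if lacking a peak in a library, if a common reference gene, or if outside the core. Some named items are not reported here.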

Additional observations from a re-analysis of the deposited data

How the results depend on the processing

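The count of ribosomal protein promoters called was 0 in each direction under all 21 alternatives, and between 1 and 7 members passed an unadjusted p of 0.05. The 7 were found without the variance trend (8.86%, against 9.01% of all promoters). Over the alternatives the share passing was 1.27% to 8.86% of the members and 7.82% to 10.05% of all promoters. Counts over all promoters, 5 lower and 1 higher as reported, moved more. They were 9 and 5 without the variance trend, 15 and 9 at an adjusted p of 0.1, 8 and 2 on the log2 fold scale centred on all promoters, 10 and 3 with a 1000 bp window, and 13 and 7 at any coding start. The count higher was 4 for promoters with a peak in all 6 libraries, 3 when ranked by −log10 p, 3 with a 250 bp window, 2 at a q-value of 0.01 and 2 with the peak nearest the start, which was chosen after seeing the data. Leaving out 1 library gave 0 to 9 lower and 0 to 5 higher, with 0 in both directions without GR-con 1 or GR-con 3, 1 and 0 without GR-con 2, 3 and 2 without GR-KO 1, and 9 and 5 without GR-KO 3. The cause was not tested.

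With the replicate number as a block, 0 promoters were called lower and 0 higher. Promoter deviations of same-numbered libraries had correlations of 0.0191, -0.0154 and -0.0026. The labels do not say whether libraries of the same number were handled together, and these correlations cannot settle it.

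The median percentile of the members was 96.5 for core genes, 98.4 when ranked by −log10 p, 96.5 with a 250 bp window, 96.5 with a 1000 bp window and 96.6 to 96.9 with 1 library left out. Their median SD lay between 0.0562 and 0.0621. Of the 6 largest differences, that of *Rps14* turned to 0.0294 with a 1000 bp window. The others kept their sign, and their sizes under some of these settings are given in the report. The median score difference of the members was -0.0438 when ranked by −log10 p and -0.0203 to 0.000579 with 1 library left out.

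Without read counts, differences in depth between libraries cannot be separated from differences in fold.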
